A study of Bos taurus with 30 samples.

Results

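The miRNAs described here are the 5 main-arm products of the miR-99/100 and miR-125 clusters, bta-miR-99a-5p, bta-miR-99b, bta-miR-100, bta-miR-125a and bta-miR-125b, out of 1030 mature bovine miRNAs listed, of which 863 had a read in at least 1 library. The members were picked by name, but they were selected on a split of their levels by animal code that had been seen in these same values. Differences between low and high codes are therefore given as a description, with no test. Small RNA was sequenced from the arcuate nucleus (ARC) of 30 Holstein-Friesian bull calves, with 1 library per calf. The 15 HI calves were offered 1.5 kg of milk replacer in 10 litres each day with concentrates ad libitum. The 15 MOD calves were offered 0.5 kg of milk replacer in 4 litres and 0.5 kg of concentrates. Both diets ran from 2 weeks of age to tissue collection at 12 weeks. Because the tissue is bulk, fewer cells of a type and less RNA per cell cannot be told apart.

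The miR-99/100 family and the miR-125 family are transcribed together with a let-7 miRNA in clusters that vertebrates have kept as copies of an ancient locus. The miR-125 family is homologous to lin-4 of the nematode, which with let-7 was among the earliest miRNAs described as timers of development, and miR-125b is known to favour differentiation of neurons. The miR-99/100 family is known for repressing MTOR and other parts of the insulin-like growth factor pathway, which links nutrients to cell growth. Members of the same family share their seed, the bases that pair with target mRNA, whereas miR-99/100 and miR-125 do not share theirs.

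In the RefSeq annotation of ARS-UCD2.0, MIR99A, MIRLET7C and MIR125B-2 neighbour each other inside the long non-coding RNA gene LOC132345457. MIR100, MIRLET7A-2 and MIR125B-1 form the cluster beside UBASH3B, and MIR125B-1 overlaps the non-coding RNA genes LOC101903557 and LOC100848689. MIR99B, MIRLET7E and MIR125A neighbour each other directly, and MIR125A overlaps SPACA6. Coordinates are left out because the reads were aligned to ARS-UCD1.2. Reads of bta-miR-125b can come from either of its precursors, and the table holds 1 value for both. The mature forms of miR-99a and miR-100 are nearly identical, so the division of reads between bta-miR-99a-5p and bta-miR-100 depends on how mismatches were counted and is uncertain.

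Values are counts per 1000000 reads (CPM) over library sizes that the authors had scaled, and the number of reads behind each was recovered from the step between values. The HI libraries held 6291376 to 21083250 miRNA reads and the MOD libraries 7026125 to 20717302, so counting error was small for the members, the rarest of which had at least 10485 reads in every library. The calves labelled with the 9 lowest animal codes were 7 HI and 2 MOD calves, and the other 21 were 8 HI and 13 MOD calves. All 9 of the former had libraries of under 10000000 reads, as did 12 of the latter. The labels do not say what the codes follow. Neuronal miRNAs marked the tissue, with 21671 to 97372 CPM over a list of 9. In that list miR-124a equals miR-124b and miR-129 equals miR-129-5p, so the sum holds the values of these 2 pairs in duplicate. The summed level of 10 pituitary miRNAs ranged from 2289 to 100739 CPM. It exceeded 50000 CPM in HI calves A17855, A31979 and A37824, which have low codes, and in MOD calves A41971 and A73759, which do not, and was at most 22849 CPM elsewhere. The differences of the members by code and by diet over all calves, and their correlations, are given with and without these 5 libraries. The ratios and the diet differences within code classes and depth classes are given with them only.

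All 5 members were abundant and passed the filter on low values. Together they held from 2.41% to 3.90% of the reads of a library, with a median of 3.30%. The order of their median levels was bta-miR-125b, bta-miR-125a, bta-miR-99b, bta-miR-100 and bta-miR-99a-5p. Within a library bta-miR-125b lay above bta-miR-125a in 29 of 30 calves, bta-miR-99b above bta-miR-100 in 28, and bta-miR-100 above bta-miR-99a-5p in all 30. The place of bta-miR-125a above bta-miR-99b held in 23 calves. It held in all 21 calves outside the lowest codes, whereas in 7 of the 9 calves with the lowest codes bta-miR-99b was the higher.

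Within the miR-99/100 family, bta-miR-99b ranged from 4054 to 13106 CPM in the HI calves, with a median of 5919 CPM. In the MOD calves it ranged from 4127 to 9632 CPM, with a median of 4852 CPM. The diets overlapped below 9632 CPM, and HI calves A17855, A31979 and A37824 lay above every MOD calf. For bta-miR-100 the HI calves ranged from 3336 to 8987 CPM with a median of 4108 CPM. The MOD calves ranged from 3075 to 8896 CPM with a median of 3678 CPM. The highest calves were HI calf A13745 and MOD calf A21978, both with low codes. The least abundant member, bta-miR-99a-5p, ranged from 1361 to 4450.3 CPM in HI, with a median of 1737 CPM, and from 1320.2 to 2738 CPM in MOD, with a median of 1806 CPM. Its 3 highest values were those of the HI calves with over 50000 CPM of pituitary miRNAs.

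The miR-125 family was more even across calves. For bta-miR-125a the HI calves ranged from 6716 to 13599.9 CPM with a median of 8555 CPM, and the MOD calves from 7384 to 12747 CPM with a median of 9280.1 CPM. The lowest calf, A27848, and the highest, A37824, were both HI calves with low codes. For bta-miR-125b the HI calves ranged from 7947 to 13692 CPM with a median of 10836 CPM. The MOD calves ranged from 8675 to 13510.2 CPM with a median of 11285 CPM, which lies inside the HI range.

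**Figure D1:**
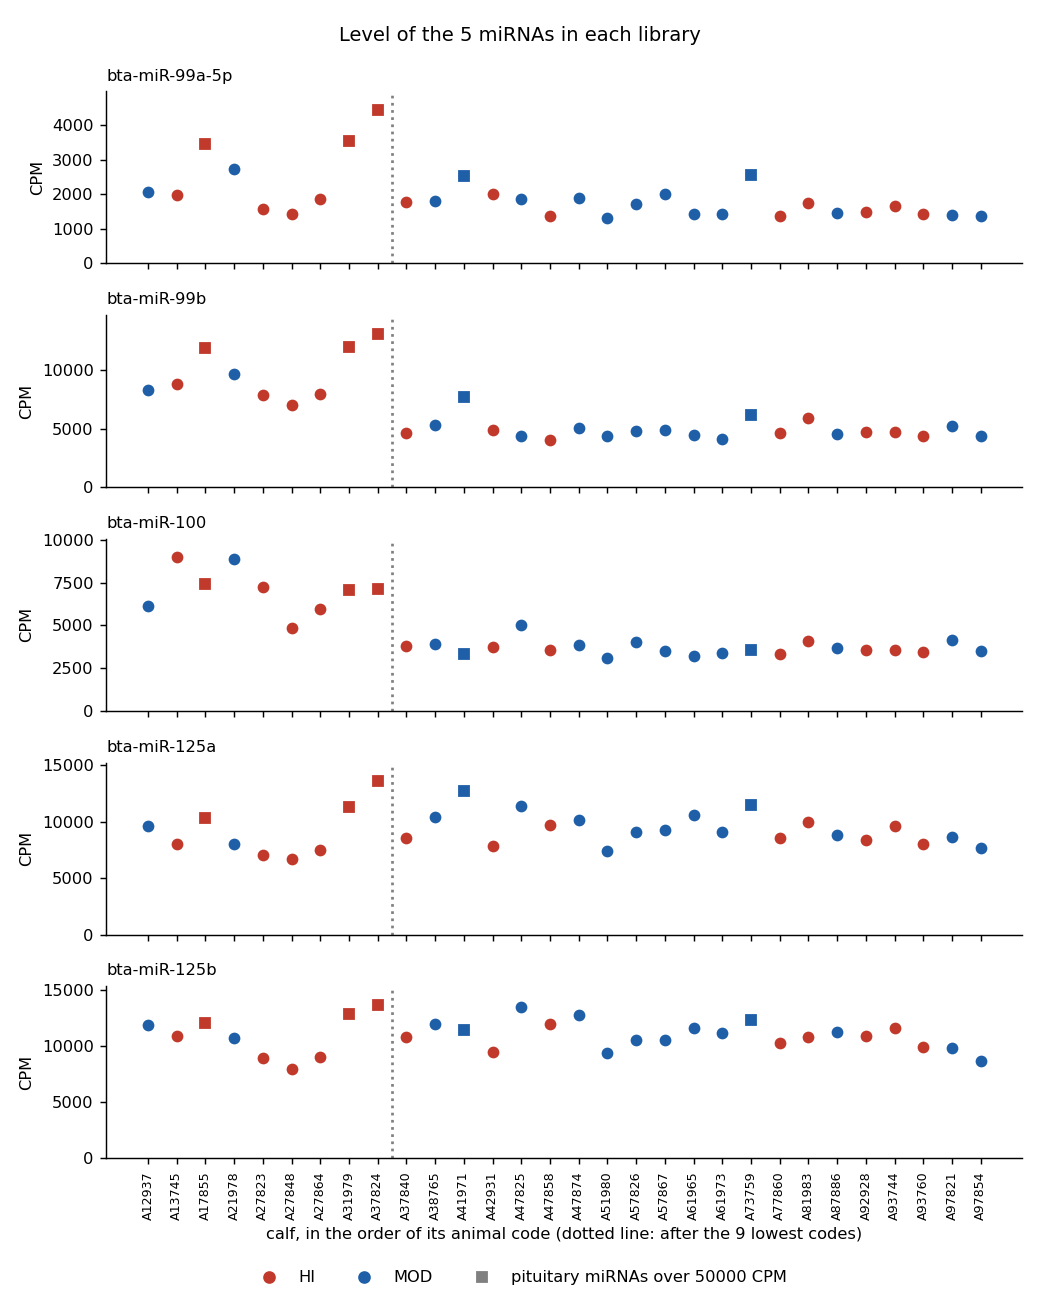
Level of each member in CPM (y axes, from 0) in the 30 calves, ordered on the x axis by animal code, with HI calves in red, MOD calves in blue and squares for the 5 calves with over 50000 CPM of pituitary miRNAs. bta-miR-99b and bta-miR-100 step down after the 9 lowest codes, to medians of 4678 and 3578 CPM, whereas bta-miR-125a and bta-miR-125b show no such step.

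Calves with the lowest animal codes had higher levels of bta-miR-99b and bta-miR-100, by nearly the same log2 difference, whereas for bta-miR-125a and bta-miR-125b the range of the other calves lay inside that of the low codes. In the 9 calves with the lowest codes bta-miR-100 ranged from 4867 to 8987 CPM, with a mean of 7079 ± 1330.5 CPM (SD, n = 9). In the other 21 calves it ranged from 3075 to 5004 CPM, with a mean of 3675 ± 416 CPM (SD, n = 21). The classes overlapped only because MOD calf A47825, at 5004 CPM, lay above HI calf A27848, at 4867 CPM. The log2 difference with diet in the limma model was 0.94.

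For bta-miR-99b the calves with the lowest codes ranged from 7014 to 13106 CPM, with a mean of 9618 ± 2173 CPM (SD, n = 9). The other calves ranged from 4054 to 7705 CPM, with a mean of 4912 ± 831 CPM (SD, n = 21). The log2 difference was 0.97, and only MOD calf A41971 lay above the lowest of the 9. At the boundary itself, the last calf inside, A37824, had 13106 CPM of bta-miR-99b and 7133 CPM of bta-miR-100. The first calf outside, A37840, had 4595 CPM and 3817 CPM. Both are HI calves.

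The third miR-99/100 member, bta-miR-99a-5p, overlapped more, with 1429 to 4450.3 CPM in the 9 low-code calves and 1320.2 to 2566 CPM in the others. Its log2 difference was 0.55, and 0.28 without the 5 calves with over 50000 CPM of pituitary miRNAs. The same omission left 0.82 for bta-miR-99b and 0.91 for bta-miR-100. Among the libraries of under 10000000 reads alone the log2 differences of these 3 members were 0.57, 0.93 and 0.96.

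Neither miR-125 member differed by as much. Levels of bta-miR-125a were 6716 to 13599.9 CPM in the lowest codes against 7384 to 12747 CPM elsewhere, with a log2 difference of -0.027. For bta-miR-125b the ranges were 7947 to 13692 CPM and 8675 to 13510.2 CPM, with a log2 difference of -0.0050. Without the 5 calves with over 50000 CPM of pituitary miRNAs the log2 differences went further below 0, to -0.19 for bta-miR-125a and -0.12 for bta-miR-125b. None of the 5 members had classes fully apart in level, against 7 of all 476 tested miRNAs (1.47%). This comparison is the one the members were selected on, so nothing is read from that count.

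The scaling of the libraries moves with the codes. Relative to a geometric mean of 1, the scaling factor of the deposited values was 0.699 to 0.999 in the calves with the lowest codes and 0.782 to 1.21 in the others. With reads divided by library size alone, the median log2 difference of all tested miRNAs went from -0.04 to -0.32. Relative to that median the difference was 1.00 for bta-miR-99b with the deposited scaling and 0.99 by library size alone. For bta-miR-100 these values were 0.98 and 0.97, and for bta-miR-99a-5p 0.59 and 0.58. For bta-miR-125a they were 0.0092 and -0.0011, and for bta-miR-125b 0.03 and 0.02. A change of scaling shifts all miRNAs of a library alike, so these near-equal pairs follow by construction and are no check. Among the marker lists, vessel miRNAs (4 of 4 tested, with 2 of 4 medians higher in the low codes) summed to 113930 to 265524 CPM in the 9 low-code calves and 49072 to 338016 CPM in the others. The pituitary list (8 of 10 tested, all 8 medians higher in the low codes) summed to 2325 to 100739 CPM and 2289 to 84373 CPM. Medians were higher in the low codes for 3 of 3 erythroid miRNAs (median sums of 33270 CPM against 29057 CPM), 3 of 9 neuronal, 1 of 7 choroid plexus and ependyma, 4 of 7 leukocyte and 2 of 3 tested oligodendrocyte miRNAs. The 9 neuronal miRNAs include the 2 pairs of equal values. The sums of all 7 lists overlapped between the classes, and no listed marker was at 0 in every library. Their part in the difference was not tested beyond the omission of the 5 calves above.

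A ratio of 2 miRNAs of the same library does not change with the scaling. Transcribed from neighbouring genes, bta-miR-99b and bta-miR-125a stood in a ratio of 0.856 to 1.205 in the calves with the lowest codes, with a median of 1.06. In the other calves the ratio was 0.383 to 0.619, with a median of 0.534, so the classes did not overlap. The lowest ratio inside was that of MOD calf A12937 and the highest outside that of HI calf A42931. The other pairs of a miR-99b or miR-100 member with a miR-125 member were also apart. The ratio of bta-miR-99b to bta-miR-125b was 0.697 to 0.987 against 0.323 to 0.673. That of bta-miR-100 to bta-miR-125a was 0.524 to 1.11 against 0.259 to 0.477. That of bta-miR-100 to bta-miR-125b, which share a cluster through MIR125B-1, was 0.519 to 0.832 against 0.275 to 0.420. Calves of both diets lay on each side.

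Within a family the ratios overlapped between the classes, though those with bta-miR-99a-5p were lower in the low codes. The ratio of bta-miR-125a to bta-miR-125b had medians of 0.833 in the calves with the lowest codes and 0.835 in the others. That of bta-miR-99b to bta-miR-100 had medians of 1.34 and 1.30. For bta-miR-99a-5p to bta-miR-99b the ratio was 0.201 to 0.340 in the low codes, with a median of 0.25, against 0.267 to 0.426, with a median of 0.336. For bta-miR-99a-5p to bta-miR-100 it was 0.219 to 0.624, with a median of 0.315, against 0.339 to 0.771, with a median of 0.429. The ratio of bta-miR-99a-5p to bta-miR-125b, whose precursor MIR125B-2 neighbours MIR99A, was 0.174 to 0.325 against 0.113 to 0.222, and 4 of the 21 other calves lay above the lowest of the 9. Of the 10 ratios between members, 4 were apart between the classes, against 1036 of 111156 ratios between tested miRNAs with reads in every library (0.932%), a share given as background to a split that was chosen from these values.

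**Figure D2:**
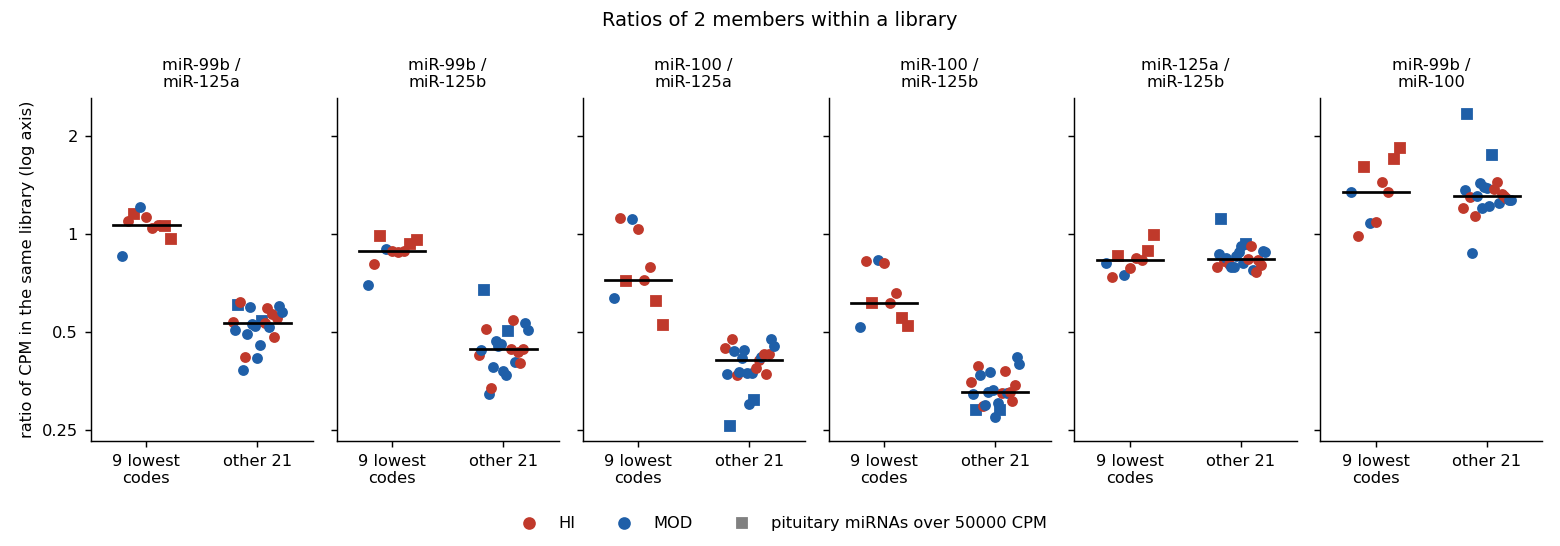
Ratio of the CPM of 2 members in the same library (y axis, log scale) for the 9 calves with the lowest codes and the other 21, with the median as a bar, HI calves in red, MOD calves in blue and squares for the 5 calves with over 50000 CPM of pituitary miRNAs. The 4 panels on the left, of miR-99b or miR-100 over a miR-125 member, show classes that do not overlap, whereas miR-125a over miR-125b has medians of 0.833 and 0.835.

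The let-7 miRNAs of the same clusters and the other arm of miR-99a differed less along the codes than the miR-99/100 members and more than the miR-125 members. let-7e, which lies between MIR99B and MIR125A, had 2591 to 3403 CPM in the lowest codes against 2623 to 3229 CPM elsewhere, with a log2 difference of 0.055. let-7c, of the MIR99A cluster, had a log2 difference of 0.21. let-7a-5p, which has further genes outside these clusters, had 0.28. The 3p arm of miR-99a had 209 to 460.4 CPM in the lowest codes against 220.2 to 361 CPM elsewhere, with a log2 difference of 0.15 against 0.55 for the 5p arm of the same precursor. The direction of the 3p arm rested on the calves with over 50000 CPM of pituitary miRNAs. Among the calves under that limit its median was 255 CPM in the lowest codes and 271 CPM elsewhere, whereas the medians of let-7c were 5353 and 5176 CPM, those of let-7a-5p 17514.5 and 14558 CPM and those of let-7e 3007 and 2835 CPM. Under the same limit the medians were 7757 and 9054 CPM for bta-miR-125a and 9862 and 10836 CPM for bta-miR-125b. Both miR-125 members there differed more than let-7c, let-7e and the 3p arm, though not more than let-7a-5p. The ratio of bta-miR-99a-5p to bta-miR-99a-3p was 6.77 to 9.67 in the calves with the lowest codes, with a median of 7.86, and 4.80 to 7.79 in the others, with a median of 5.92. The ratio of the arms thus overlapped between the classes, with 5 of the 21 other calves above the lowest of the 9. No 3p arm of the other members is given here. The ratio of bta-miR-99b to its neighbour let-7e was 2.28 to 4.28 in the lowest codes against 1.27 to 2.87 elsewhere, and only MOD calf A41971 overlapped. The ratio of let-7e to bta-miR-125a, on the other side of it in the cluster, overlapped widely, at 0.225 to 0.458 against 0.211 to 0.405. The ratio of bta-miR-100 to let-7a-5p was 0.283 to 0.499 against 0.181 to 0.320, with 3 of the 21 other calves above the lowest of the 9.

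The 5 calves with over 50000 CPM of pituitary miRNAs stood high for some members within both code classes. Among the calves with the lowest codes, bta-miR-99a-5p was 3451 to 4450.3 CPM in the 3 such calves and 1429 to 2738 CPM in the other 6. Outside the lowest codes it was 2543 and 2566 CPM in the 2 such calves and 1320.2 to 2013 CPM in the other 19. The same calves were apart from the rest of their code class for bta-miR-99b, at 11904 to 13106 CPM against 7014 to 9632 CPM, and at 6194 and 7705 CPM against 4054 to 5919 CPM. They were also apart for bta-miR-125a, at 10312.9 to 13599.9 CPM against 6716 to 9638 CPM among the lowest codes, and at 11459 and 12747 CPM against 7384 to 11408 CPM outside them. For bta-miR-100 they were not, with 7073 to 7420 CPM against 4867 to 8987 CPM, and 3299 and 3564 CPM against 3075 to 5004 CPM. For bta-miR-125b they were apart within the lowest codes, at 12058 to 13692 CPM against 7947 to 11842 CPM, but not outside them. The part that pituitary tissue has in these levels was not tested.

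The diets were compared with limma on log2(CPM + 0.25) across the 476 tested miRNAs, asking whether the HI diet changed the level of each member. No member passed an adjusted p of 0.1 with a fold change above 1.5, and neither did any other miRNA (0 of 476, 0%). Before adjustment 21 miRNAs had p under 0.05, none of them a member. edgeR's quasi-likelihood test on the recovered reads called 0 miRNAs and DESeq2's Wald test 1, which was not a member.

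For bta-miR-100 the HI calves differed from the MOD calves by a log2 fold change of 0.28 (standard error 0.16, 95% interval -0.05 to 0.61, adjusted p = 0.912 from limma with Benjamini-Hochberg adjustment). By permutation the difference had p = 0.109, with 10 of 15 HI calves higher than the median MOD calf. For bta-miR-99b it was 0.29 (standard error 0.17, 95% interval -0.07 to 0.65, adjusted p = 0.912 from limma, permutation p = 0.122), with 9 HI calves above the MOD median. Because 7 of the 9 calves with the lowest codes were HI calves, the comparison was repeated within the code classes. Among the 7 HI and 2 MOD calves with the lowest codes, the log2 difference of bta-miR-100 was -0.11 (exact permutation test, p = 0.611). Among the 8 HI and 13 MOD other calves it was -0.0099 (exact permutation test, p = 0.923). For bta-miR-99b these differences were 0.10 (exact permutation test, p = 0.778) and -0.08 (exact permutation test, p = 0.484). With 7 calves against 2, the smallest p possible is 0.0556. With the code class as a term in limma, the log2 fold changes of bta-miR-100 and bta-miR-99b were -0.034 and -0.033, with 95% intervals of -0.20 to 0.13 and -0.23 to 0.17. The code classes were drawn from levels that include those of these members, and 7 of the 9 low-code calves are HI calves, so the term and the values within classes take up part of any diet difference and are no independent check of it. Diet and code class cannot be fully told apart here.

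The third member of the family, bta-miR-99a-5p, had a log2 fold change of 0.11 (standard error 0.16, 95% interval -0.22 to 0.44, adjusted p = 0.982 from limma, permutation p = 0.524). Of the HI calves, 6 of 15 were higher than the median MOD calf. With the code class as a term, under the same limit, the value was -0.076. The direction was not kept without the 5 calves with over 50000 CPM of pituitary miRNAs, which gave -0.057. The same omission gave 0.11 for bta-miR-100, 0.12 for bta-miR-99b, -0.15 for bta-miR-125a and -0.11 for bta-miR-125b (adjusted p from 0.936 to 0.943 in limma). The miR-125 members lay slightly lower in HI. The log2 fold change was -0.10 for bta-miR-125a (standard error 0.09, 95% interval -0.29 to 0.08, adjusted p = 0.982 from limma, permutation p = 0.270). It was -0.06 for bta-miR-125b (standard error 0.07, 95% interval -0.21 to 0.09, adjusted p = 0.982 from limma, permutation p = 0.404). These hardly moved with the code class as a term, at -0.093 and -0.058. The intervals of all 5 members contain 0.

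**Figure D3:**
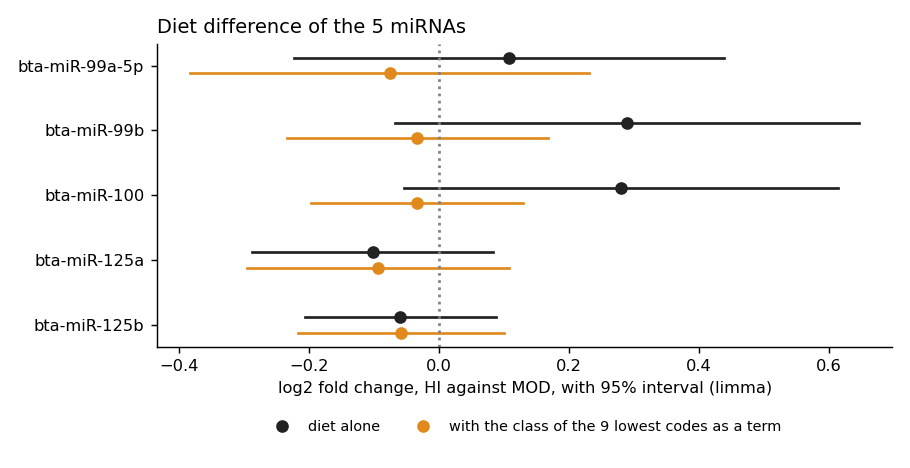
Log2 fold change of HI against MOD (x axis) for each member from limma, with its 95% interval as a line, with diet alone in black and with a term for the 9 lowest codes in orange. The estimates of bta-miR-99b and bta-miR-100 go from 0.29 and 0.28 to -0.033 and -0.034 when the term is added, and every interval contains 0. The code term was drawn from the same values.

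By depth, the 3 miR-99/100 members had opposite directions in the shallower and the deeper libraries, and no difference in either class had p under 0.05. Among the 12 HI and 9 MOD shallower libraries the log2 differences were 0.36 for bta-miR-99b, 0.34 for bta-miR-100 and 0.20 for bta-miR-99a-5p (exact permutation tests, p = 0.138, 0.136 and 0.389). These libraries include all low-code calves, 7 HI and 2 MOD, so the depth classes differ in codes too. They also include HI calves A17855, A31979 and A37824, with over 50000 CPM of pituitary miRNAs, and values by depth are given with such calves only. Among the 3 HI and 6 MOD deeper libraries, none of which has a low code, they were -0.17, -0.096 and -0.21 (exact permutation tests, p = 0.190, 0.571 and 0.524). Whether the diet difference of a member differs between the depth classes was not tested. Among the deeper libraries bta-miR-125a was lower in the 3 HI than in the 6 MOD calves by a log2 difference of -0.27 (exact permutation test, p = 0.0714, smallest possible 0.0238). Among the shallower libraries its difference was -0.017 (exact permutation test, p = 0.882). For bta-miR-125b the differences were -0.0021 in the shallower and -0.17 in the deeper libraries (exact permutation tests, p = 0.986 and 0.214). The interaction of diet and code class in limma had unadjusted p-values from 0.457 for bta-miR-99b to 0.824 for bta-miR-125b. Its 95% intervals were wide, at -0.61 to 0.85 for bta-miR-99a-5p, -0.30 to 0.65 for bta-miR-99b and -0.42 to 0.34 for bta-miR-125b. With only 2 MOD calves in the low codes, this test cannot decide whether the diet difference of a member differs between the code classes. The classes were also drawn from levels that include those of the members. The let-7 miRNAs of the clusters had log2 fold changes between the diets of 0.044 for let-7c, 0.084 for let-7a-5p and 0.028 for let-7e, and the 3p arm of miR-99a had -0.034 (adjusted p from 0.982 to 0.984 in limma). Among 18 ratios of members, arms and cluster partners tested for diet, that of bta-miR-99b to bta-miR-125a had the smallest p. Its median was 0.619 in HI, where it ranged from 0.418 to 1.15, and 0.531 in MOD, where it ranged from 0.383 to 1.205. The log2 difference was 0.39 (permutation p = 0.0324, adjusted over the 18 ratios p = 0.253). For the 7 HI and 2 MOD calves with the lowest codes it was 0.075, with p = 0.611 in an exact permutation test. For the 8 HI and 13 MOD other calves it was 0.055, with p = 0.540 by the same exact test.

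Across calves, members of the same family were compared with members of the same cluster, within each code class. All values of a library share its scaling factor, at 0.699 to 0.999 in the low codes and 0.782 to 1.21 in the others. Its part in the correlations here and below was not tested, and no r over all tested pairs is given as background. Over all 9 calves with the lowest codes, bta-miR-125a and bta-miR-125b had r = 0.94 (exact permutation p = 0.000209, adjusted over 22 relations p = 0.000766) and rho = 1.00 (exact permutation p = 5.51e-06, adjusted p = 0.00011). In all 21 other calves r was 0.81 (permutation p = 2e-05, adjusted p = 0.000147) and rho 0.84 (permutation p = 1e-05, the smallest that the resamples can give, adjusted p = 0.00011). For bta-miR-99b with bta-miR-125a, r was 0.90 in the 9 calves (exact permutation p = 0.000998, adjusted p = 0.00274) and 0.59 in the 21 calves (permutation p = 0.00435, adjusted p = 0.00798), with rho of 0.93 (adjusted p = 0.00183) and 0.36 (adjusted p = 0.173). When the 2 calves farthest from the median were left out, r of this pair was 0.78 and 0.19. The arms of miR-99a had r = 0.99 and 0.74 (exact and resampled permutation, adjusted p = 0.000147 and 0.000766), with rho of 0.97 and 0.71 (adjusted p = 0.000908 and 0.00111). For bta-miR-99a-5p with bta-miR-99b, r was 0.98 and 0.76 (exact and resampled permutation, adjusted p = 0.000147 and 0.00066), and for bta-miR-99b with bta-miR-100 it was 0.46 and 0.038 (adjusted p = 0.2998 and 0.864). The third pair of that family, bta-miR-99a-5p with bta-miR-100, had r of 0.41 and 0.22 (adjusted p = 0.332 and 0.388).

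The other pairs from 1 cluster were bta-miR-99a-5p with bta-miR-125b, with r of 0.90 and 0.42 (exact and resampled permutation, adjusted p = 0.00352 and 0.0982), and bta-miR-100 with bta-miR-125b, with r of 0.47 and 0.39 (adjusted p = 0.295 and 0.122). Pairs that share neither family nor cluster also gave high values in places. For bta-miR-99a-5p with bta-miR-125a r was 0.92 and 0.65 (exact and resampled permutation, adjusted p = 0.00223 and 0.00323). For bta-miR-99b with bta-miR-125b it was 0.89 and 0.16 (adjusted p = 0.00544 and 0.527), and for bta-miR-100 with bta-miR-125a 0.22 and 0.26 (adjusted p = 0.604 and 0.332). In the order in which these 5 pairs are named, rho was 0.95, 0.25, 0.95, 0.93 and 0.25 in the 9 calves (adjusted p = 0.00111, 0.546, 0.00111, 0.00183 and 0.546, exact permutation) and 0.41, 0.25, 0.52, 0.095 and 0.17 in the 21 calves (adjusted p = 0.128, 0.357, 0.0324, 0.683 and 0.521).

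The calves with over 50000 CPM of pituitary miRNAs stood apart in several of these levels, so the relations were taken again without them, in 19 calves outside and 6 inside the lowest codes, a choice made after seeing the data. The levels of bta-miR-125a and bta-miR-125b, which share a seed but no gene cluster, were correlated in the 19 calves with Pearson's r = 0.89 (permutation p = 1e-05, the smallest that the resamples can give, adjusted over 22 relations p = 0.00022). Spearman's rho was 0.85 (permutation p = 3e-05, adjusted p = 0.00066). Leaving out the 2 calves farthest from the median gave r = 0.83. In the 6 calves r was 0.93 (exact permutation p = 0.00694, adjusted p = 0.0382), or 0.91 when the 2 farthest were left out. Their ranks were in the same order, with rho of 1.00 (exact permutation p = 0.00278, adjusted p = 0.0306).

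For bta-miR-99b and bta-miR-125a, from neighbouring genes, r was 0.19 in the 19 calves (permutation p = 0.449, adjusted p = 0.494) and rho was 0.14 (permutation p = 0.558, adjusted p = 0.585). In the 6 calves r was 0.53 (exact permutation p = 0.261, adjusted p = 0.302), with a rho of 0.77 (exact permutation p = 0.103, adjusted p = 0.162). Without the 2 farthest calves r was -0.07 and 0.41. The relation in all 21 calves thus rested on A41971 and A73759. Whether the relation of this pair differs from that of bta-miR-125a with bta-miR-125b was not tested. The arms of miR-99a, from the same precursor, had r = 0.62 in the 19 calves (permutation p = 0.00531, adjusted p = 0.0382) and rho = 0.63 (permutation p = 0.00488, adjusted p = 0.0358). In the 6 calves r was 0.94 (exact permutation p = 0.00556, adjusted p = 0.0382), with a rho of 0.89 (exact permutation p = 0.0333, adjusted p = 0.0916). Without the 2 farthest, r was 0.56 and 0.94.

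Within the miR-99/100 family, r in the 19 calves was 0.54 for bta-miR-99a-5p with bta-miR-100 (permutation p = 0.0137, adjusted p = 0.0510) and rho was 0.57 (permutation p = 0.0129, adjusted p = 0.0544). Without the 2 farthest calves r was 0.70. The other pairs in this family had r = 0.48 for bta-miR-99a-5p with bta-miR-99b (permutation p = 0.0343, adjusted p = 0.0839) and 0.39 for bta-miR-99b with bta-miR-100 (permutation p = 0.0959, adjusted p = 0.152), with rho of 0.57 and 0.55 (adjusted p = 0.0544 for both) and r of 0.49 and 0.29 without the 2 farthest. In the 6 calves r was 0.68 for bta-miR-99a-5p with bta-miR-100, 0.93 for bta-miR-99a-5p with bta-miR-99b and 0.89 for bta-miR-99b with bta-miR-100 (exact permutation tests, adjusted p = 0.191, 0.0510 and 0.0611), and fell to -0.092, 0.62 and 0.73 without the 2 farthest calves. None of the 3 passed 0.05 after adjustment in either set of calves. Of the other pairs in the 19 and the 6 calves, r was 0.36 and 0.76 for bta-miR-99a-5p with bta-miR-125b, 0.46 and 0.60 for bta-miR-100 with bta-miR-125b, 0.39 and 0.62 for bta-miR-99a-5p with bta-miR-125a, -0.017 and 0.76 for bta-miR-99b with bta-miR-125b and 0.52 and 0.27 for bta-miR-100 with bta-miR-125a, all with adjusted p above 0.05. Without the 2 farthest of the 19 calves, r fell to 0.0497 for bta-miR-100 with bta-miR-125b and 0.11 for bta-miR-100 with bta-miR-125a, and went to 0.64 for bta-miR-99a-5p with bta-miR-125b, 0.63 for bta-miR-99a-5p with bta-miR-125a and -0.14 for bta-miR-99b with bta-miR-125b. In the 6 calves these values were 0.092, -0.25, 0.83, 0.86 and 0.68.

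**Figure D4:**
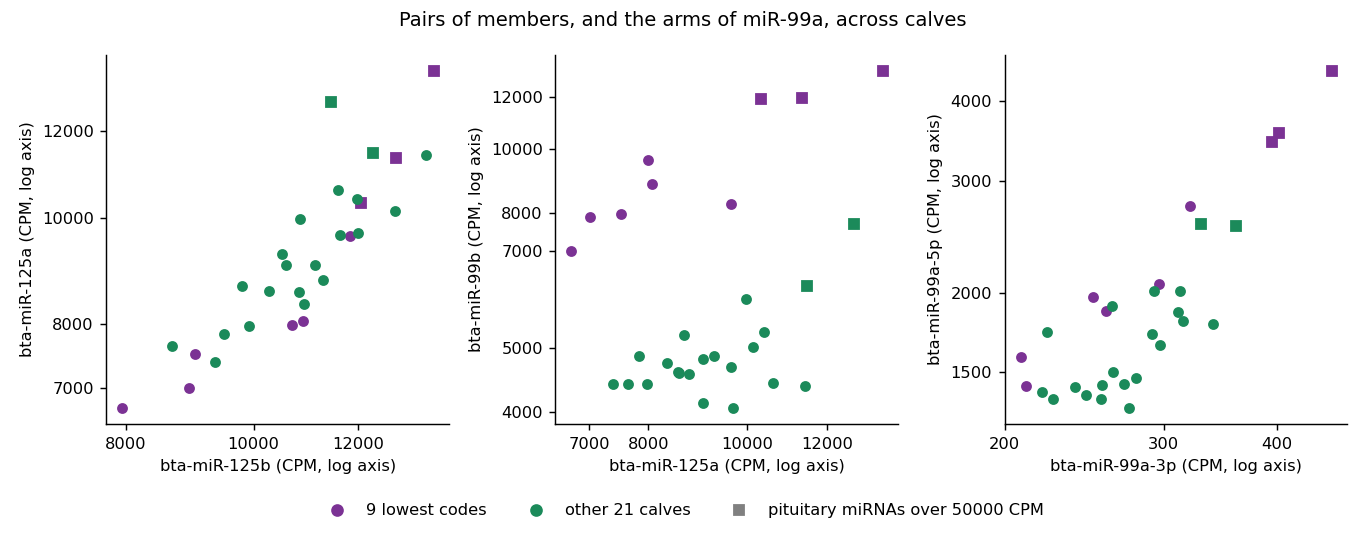
Levels of bta-miR-125a against bta-miR-125b, of bta-miR-99b against bta-miR-125a and of the 5p against the 3p arm of miR-99a (CPM, log axes), 1 point per calf, with the 9 lowest codes in purple, the other 21 calves in green and squares for the 5 calves with over 50000 CPM of pituitary miRNAs. Both code classes fall along the same course for the miR-125 pair, whereas bta-miR-99b lies at 7014 to 13106 CPM in the lowest codes against 4054 to 7705 CPM elsewhere over the same range of bta-miR-125a.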

How the data were processed

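Small RNA libraries of 30 ARC samples were analysed, with diets taken from the labels. Adapters were removed by the authors with Cutadapt, and reads of 15 to 28 bases that were no other short RNA were profiled with miRDeep2 on miRBase entries and the ARS-UCD1.2 genome. The labels name a stranded RNA kit where the methods name a small RNA kit. The deposited signal values are decimals in the form of CPM over scaled library sizes, whose normalization is not given in the sources used here. Reads were recovered by dividing by the worth of 1 read. Between 94.5% and 97.9% of values up to 200 reads were whole within 0.1 read, and the rest were fractions of reads. The reads served for the filter (edgeR's filterByExpr, 476 kept) and for the count tests, which are alternatives only. The main test was limma (lmFit, eBayes with trend) on log2(CPM + 0.25), a scale that understates changes of low miRNAs, with Benjamini-Hochberg adjustment. It called miRNAs at an adjusted p under 0.1 with a fold change above 1.5. Single values were compared by permutation (two-sided, 100000 resamples), or over all arrangements where a group had under 10 calves. The code was tested on simulated counts.

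The members, lists, code class and tests were chosen with earlier results of these data known. The limit of 50000 CPM over pituitary miRNAs was set after seeing the values. The named miRNAs are the members, the other arm of miR-99a, the let-7 miRNAs of the clusters and the 3 miRNAs most like each member in rank over 30 calves. Mature sequences were not used here, so a search for shared seeds was not made. Counting intervals are not given, since each member has at least 10485 reads in every library. Other marker lists fixed for oligodendrocytes, choroid plexus and ependyma, erythroid cells and leukocytes gave summed levels with overlapping ranges between the code classes (1425 to 13877, 22285 to 44671, 21182 to 40320.3 and 2135 to 4136 CPM over all calves). Software was R 4.3.3, limma 3.58.1, edgeR 4.0.16, DESeq2 1.42.0, Python 3.11.15 and scipy 1.17.1.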

Additional observations from a re-analysis of the deposited data

How the results depend on the processing

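No paired analysis was possible because each calf belongs to 1 diet and the labels share no replicate number between the diets. With the code class as a term, which was drawn from these same values and is no independent check, the diet difference was below 0 for bta-miR-99a-5p (-0.076), bta-miR-99b (-0.033) and bta-miR-100 (-0.034). Leaving out the 5 calves with over 50000 CPM of pituitary miRNAs, chosen after seeing the data, turned it for bta-miR-99a-5p (-0.057). No member was called in any of 13 alternatives of scaling, filter, pseudocount, test and covariates or in 30 fits without 1 calf each, with adjusted p-values of at least 0.570. Among the alternatives not named elsewhere, those that moved a value by over 1.5 times were edgeR and DESeq2 (both 0.19), library size alone (0.065) and the pituitary list as a covariate (0.038) for bta-miR-99a-5p, upper quartile factors for bta-miR-125a (-0.056), and upper quartile factors (-0.013) and library size alone (-0.10) for bta-miR-125b. Over the fits without 1 calf the log2 fold change of bta-miR-100 lay between 0.22 and 0.36 and that of bta-miR-99b between 0.22 and 0.35. That of bta-miR-99a-5p lay between 0.022, without HI calf A37824 (0.045 without HI calf A31979), and 0.15, that of bta-miR-125a between -0.15 and -0.072, and that of bta-miR-125b between -0.085 and -0.029, the last without HI calf A27848. The number of miRNAs called between the diets was 1 with DESeq2's Wald test and between 0 and 1 in the fits without 1 calf, with 1 called when A77860 (HI) or A97854 (MOD) was left out. For the difference along the codes, a boundary after 7 codes gave 0.18 for bta-miR-99a-5p, 0.67 for bta-miR-99b, -0.22 for bta-miR-125a and -0.13 for bta-miR-125b. After 8 codes bta-miR-99a-5p had 0.34, bta-miR-125a -0.14 and bta-miR-125b -0.073, the last with -0.00071 after 10 and -0.0022 after 13, and a boundary after 13 gave 0.62 for bta-miR-100 and turned bta-miR-125a to 0.027. Library size alone gave 0.25 for bta-miR-99a-5p, 0.67 for bta-miR-99b, 0.65 for bta-miR-100, -0.32 for bta-miR-125a and -0.30 for bta-miR-125b, where the median of all tested miRNAs also moved by construction of the scaling. Among the shallower libraries only, a setting chosen after seeing the data, bta-miR-125b turned to 0.0039. For the boundaries and the omitted calves the cause was not tested.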

Other observations

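By rank over the 30 calves, the tested miRNAs most like bta-miR-99b were miR-192 (Spearman's rho 0.80), miR-1271 (0.79) and bta-miR-99a-5p (0.76). Those most like bta-miR-100 were miR-1271 (0.79), miR-6522 (0.74) and bta-miR-99b (0.73). For bta-miR-99a-5p they were miR-25 (0.83), miR-6524 (0.81) and miR-191 (0.80). The nearest to bta-miR-125a and to bta-miR-125b was the other of the pair (0.89), followed for bta-miR-125a by miR-1247-5p (0.79) and miR-186 (0.76) and for bta-miR-125b by miR-423-5p (0.80) and miR-1247-5p (0.73). These are descriptions over libraries that share a scaling, with no test.

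Among 41 precursors with both arms tested, the ratio of the 5p to the 3p arm of miR-99a had the 9th highest difference between the code classes, 0.40 on the log2 scale in favour of the 5p arm in the lowest codes. The ratio was apart between the classes for 2 of the 41 precursors, and miR-99a was not among them.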
